A study of Mus musculus with 10 samples.

Results

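The unfolded protein response and protein folding in the endoplasmic reticulum (ER) were described through a fixed list of 32 genes in mouse CD8 T cells. All 32 were found among the 53465 genes of the count files, and all 32 passed the filter on low counts that left 13182 genes for testing. By role they comprise 10 chaperones and co-chaperones, 9 enzymes and lectins of disulfide formation and glycoprotein folding, 4 sensors and regulators, 6 components of ER-associated degradation and 3 components of the translocon. The list was not chosen on these measurements, although earlier results of the same data were known when it was drawn up.

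Proteins that enter the secretory pathway, among them the cytokines and granule proteins of an effector T cell, are threaded through the Sec61 channel into the ER, where chaperones of the Hsp70 and Hsp90 families, protein disulfide isomerases and the lectins calnexin and calreticulin fold them. Client proteins that do not fold are drawn back out through the Hrd1 complex and degraded. When unfolded protein accumulates, the membrane sensors IRE1, PERK and ATF6 signal to the nucleus, where the transcription factors XBP1, ATF4 and the cleaved form of ATF6 activate folding and degradation genes. XBP1 is made active by unconventional splicing of its mRNA, a change that counts per gene do not separate from the unspliced form.

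The cells carried the OT-I transgene, which encodes a T cell receptor for an ovalbumin peptide, on the C57BL/6 strain, and came from spleen and peripheral lymph nodes. All were activated with the peptide and interleukin-2 in 25 mM glucose for 3 days, then moved to 1 mM glucose, and all were restimulated for 4 h with PMA and ionomycin, which bypass the receptor. The 10 libraries form 4 groups: d9 with acetate (120 h at 1 mM glucose, 5 mM sodium acetate during the last day, n = 3), d9 without acetate (120 h, n = 3), d5 with acetate (24 h, with acetate throughout, n = 2) and d5 without acetate (24 h, n = 2). Cells kept in 25 mM glucose or left without restimulation were not analysed here, so every group shares low glucose and restimulation. Neither time of restriction, added to 3 days of activation, gives the labelled day, and the day names are used here as labels only. Nothing in the labels says that replicates were separate animals or cultures, so p-values measure the spread between these samples, which may be technical.

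Total counts were 22.97 to 24.66 M per d9 library with acetate, 23.05 to 23.93 M per d9 library without, 17.53 and 17.97 M at d5 with acetate and 17.05 and 16.59 M at d5 without. The lowest count of a listed gene in a library was 265 (Hspa13) and the highest 88665 (Hspa5), so counting error was small beside the spread between replicates. Levels are given as CPM, counts scaled to library size and trimmed mean (TMM) factors, and differences as log2 fold changes ± SE. The 8 CD8 T cell markers summed to 3411 to 3847 CPM at d9 with acetate, 3484 to 3655 CPM at d9, 3100 to 3242 CPM at d5 with acetate and 2716 to 2846 CPM at d5. Of these 8 genes, 5 were called in some comparison, and they did not all move together. At d5, Cd8a had 10265 and 10367 counts with acetate, against 6533 and 5231 without. Cd3e went the other way, with 3025 and 2996 counts, against 4095 and 4245. B and plasma cell markers, which matter here because plasma cells express this pathway strongly, summed to at most 16.3 CPM over 10 genes, of which 8 stayed under 1 CPM in every library and Tnfrsf17 had no count. Most of that sum came from Sdc1, with 62 to 330 counts per library. The 4 CD4 T cell markers summed to 135.6 to 169.3 CPM at d9 with acetate and 138.3 to 146.5 CPM at d9. They summed to 148.1 to 162.3 CPM at d5 with acetate and 117.3 to 131.3 CPM at d5. Most came from Zbtb7b (1812 to 3830 counts per library), while Cd4 had 4 to 39 counts. Of these 4 genes, 2 were called in some comparison. The 8 myeloid markers summed to at most 14.1 CPM. The 4 NK cell markers summed to 1160 to 1486 CPM at d9 with acetate, 1081 to 1182 CPM at d9, 787 and 836 CPM at d5 with acetate and 715 and 779 CPM at d5, nearly all from Nkg7, which activated CD8 T cells also express, while Ncr1 stayed at or below 0.263 CPM. The part of other cell types in the results was not tested. At d9, replicate 2 with acetate and replicate 1 without acetate stood apart: ribosomal protein genes took 15.1% and 15.5% of their counts, against 11.2 to 12.7% in the other d9 libraries. In bulk RNA, fewer cells of a type and less RNA per cell cannot be told apart.

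Per kilobase of exon, which allows levels to be compared between genes, the listed genes spanned from 819 CPM per kb for Hspa5 to 3.14 CPM per kb for Hspa13, averaged over the 10 libraries. Hspa5 encodes BiP, the Hsp70 chaperone of the ER lumen whose release from the sensors is thought to help activate them. Calr (calreticulin, 521 CPM per kb), P4hb (a protein disulfide isomerase, 317 CPM per kb) and Herpud1 (a scaffold of the degradation complex, 309 CPM per kb) followed. At the low end stood Hspa13 (an Hsp70-like microsomal ATPase), Ero1lb (an ER oxidase, 4.49 CPM per kb) and Ern1 (the kinase and nuclease IRE1, 7.99 CPM per kb). Together the 32 genes took 1.32 to 1.43% of all counts at d9 with acetate, 1.41 to 1.47% at d9 without, 1.78 and 1.89% at d5 with acetate and 1.53 and 1.48% at d5 without. The d5 libraries with acetate thus held the largest share, and those of the other 3 groups lay below both of them.

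A known regulatory sequence links many of these genes, the ER stress response element (ERSE), written as CCAAT, 9 bases and CCACG, which ATF6 and XBP1 bind beside the factor NF-Y in mammals. Promoter windows of 250 bases before to 50 bases after the transcription start (RefSeq, GRCm38.p6) were matched for 26 of the 32 genes, in 29 windows. An exact ERSE on either strand was present for 9 of the 26 genes (34.6%): Hspa5, Hsp90b1, Dnajc3, Creld2, Calr, Canx, Pdia6, Ero1lb and Syvn1. Among all 32851 promoter windows 39 held it (0.119%). Known targets of the pathway are on the list, so this share is not independent of how the list was made. The related ERSE-II (ATTGG, 1 base, CCACG) was present for Herpud1 and Dnajb11, against 0.0365% of all windows. The short parts were common: CCACG was found for 22 of the 26 genes and in 32.8% of all windows, and CCAAT for 20 of the 26 and in 37.4%. TGACGTG, the core of the element that ATF6 was selected on, was present for Hspa5 and Txndc5, against 2.01% of all windows. Because CCAAT and CCACG are parts of ERSE, these searches overlap. A match is a string of letters, not a site shown to be bound, and the absence of one says nothing about the factors.

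The promoters of 5 genes are shown because they belong to genes on which the results turn, the first set with an ERSE and the second without. The first set is Hspa5 at chr2:34771840-34772139 (plus strand), Hsp90b1 at chr10:86705395-86705694 (minus strand) and Dnajc3 at chr14:118937682-118937981 (plus strand). Capitals mark both parts of the ERSE and, in Hspa5, TGACGTG. Counted from the transcription start, the ERSE begins at position -65 in Hspa5 and -105 in Dnajc3, and Hsp90b1 holds 2 copies, at -212 and, on the opposite strand and so read as CGTGG and ATTGG, at -107.
Hspa5: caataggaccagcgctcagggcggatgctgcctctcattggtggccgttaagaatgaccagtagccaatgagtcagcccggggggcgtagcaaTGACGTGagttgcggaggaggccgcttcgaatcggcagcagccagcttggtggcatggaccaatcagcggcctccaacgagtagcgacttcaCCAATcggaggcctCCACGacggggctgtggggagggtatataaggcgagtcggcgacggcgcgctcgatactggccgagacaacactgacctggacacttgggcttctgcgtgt
Hsp90b1: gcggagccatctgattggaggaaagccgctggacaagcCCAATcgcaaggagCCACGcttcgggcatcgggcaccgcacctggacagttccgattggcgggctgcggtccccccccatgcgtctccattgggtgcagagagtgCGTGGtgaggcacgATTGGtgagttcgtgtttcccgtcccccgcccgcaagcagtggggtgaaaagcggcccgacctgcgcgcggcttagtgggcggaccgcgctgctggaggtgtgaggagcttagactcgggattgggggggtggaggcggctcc
Dnajc3: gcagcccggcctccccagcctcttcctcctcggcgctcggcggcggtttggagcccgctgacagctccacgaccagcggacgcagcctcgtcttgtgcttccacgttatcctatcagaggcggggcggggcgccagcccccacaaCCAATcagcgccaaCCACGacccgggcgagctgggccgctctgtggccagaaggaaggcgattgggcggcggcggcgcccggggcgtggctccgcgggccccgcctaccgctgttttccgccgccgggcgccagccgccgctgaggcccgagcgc
The second set is Ern1 at chr11:106487747-106488046 (minus strand) and Eif2ak3 at chr6:70844265-70844564 (plus strand). Neither holds an exact ERSE, ERSE-II or TGACGTG, so no capitals appear, although Eif2ak3 holds CCAAT 6 times, counting both strands.
Ern1: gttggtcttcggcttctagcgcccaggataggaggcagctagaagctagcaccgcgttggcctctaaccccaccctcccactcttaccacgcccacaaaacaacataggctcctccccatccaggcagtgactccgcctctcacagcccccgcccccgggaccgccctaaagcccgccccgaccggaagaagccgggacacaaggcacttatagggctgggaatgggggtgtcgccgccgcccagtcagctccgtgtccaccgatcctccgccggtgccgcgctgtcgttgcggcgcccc
Eif2ak3: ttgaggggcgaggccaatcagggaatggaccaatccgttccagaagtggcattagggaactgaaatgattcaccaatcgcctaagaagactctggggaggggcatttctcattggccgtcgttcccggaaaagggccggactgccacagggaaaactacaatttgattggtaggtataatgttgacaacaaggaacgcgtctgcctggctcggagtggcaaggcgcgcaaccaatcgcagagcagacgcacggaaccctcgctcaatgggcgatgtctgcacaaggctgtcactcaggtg

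The comparison of d9 with d5 set 120 h at 1 mM glucose against 24 h. Cells at d9 had also been in culture longer since activation. Length of restriction and time in culture therefore cannot be told apart in this comparison, and library depth differed by day as well. Several chaperone transcripts were lower and the mRNAs of the sensors IRE1 and PERK were higher at d9, in both acetate states. With acetate, 14 of the 32 genes fell and 4 rose at an adjusted p of 0.05 (edgeR quasi-likelihood test, Benjamini-Hochberg over 13182 genes), while over all genes 41.6% were called, 23.1% lower and 18.5% higher. Without acetate, 7 fell and 4 rose, against 37.1% of all genes called, 21.2% lower and 15.9% higher. The median log2 fold change of the 32 genes was -0.26 with acetate, where that of all genes was -0.01, and -0.01 without acetate, where that of all genes was -0.01. With library size alone as scaling, which moved the median of all genes by -0.10 in both day comparisons, 18 fell and 2 rose with acetate. The share of all genes called under that scaling is not given here. Groups did not overlap, with all d9 libraries below all d5 ones, for 18 of the 32 genes with acetate (33.4% of all genes) and for 11 without (33.3%). All d9 libraries lay above all d5 ones for 5 genes with acetate (29.1% of all genes) and for 9 without (29.8%). Both day lists shared 10 genes, which is 55.6% of the 18 called with acetate and 90.9% of the 11 called without, and each of the 10 had the same sign in both.

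**Figure D1:**
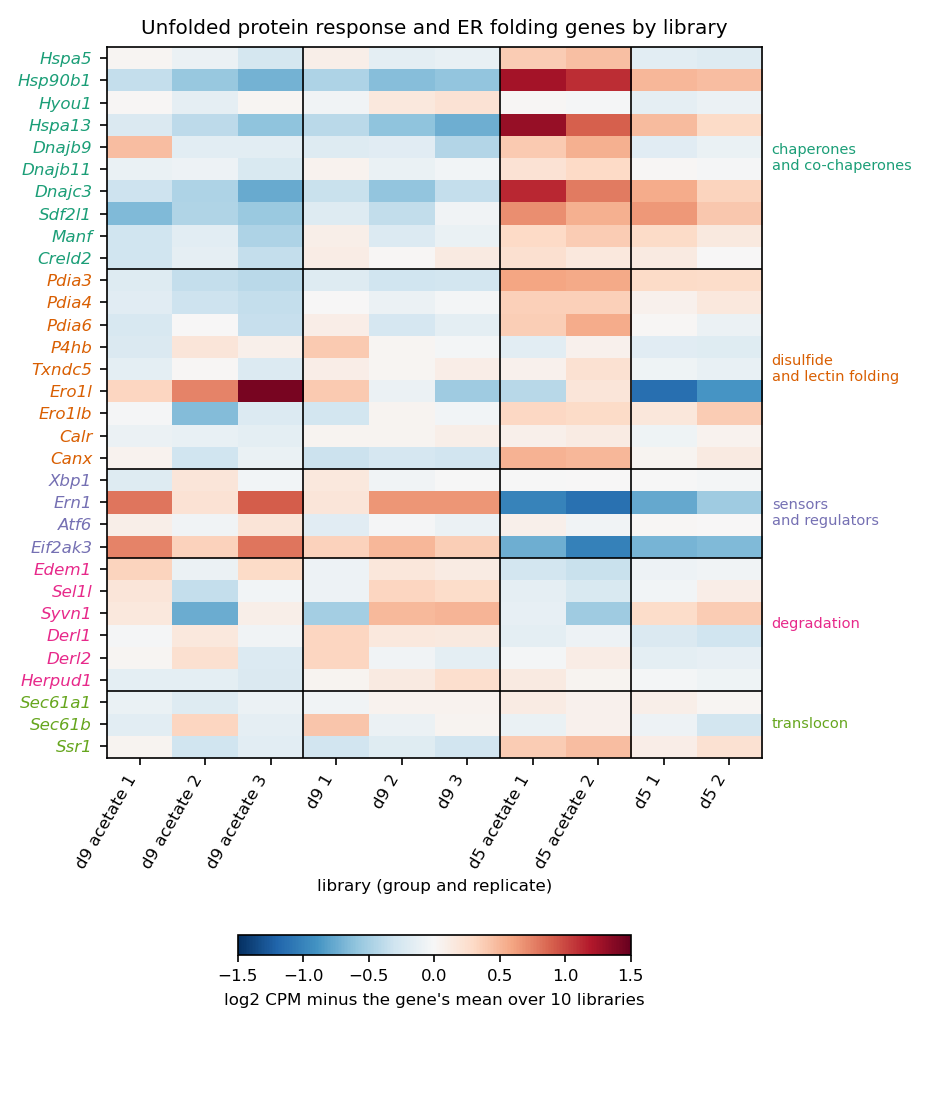
Levels of the 32 genes (rows, grouped by role) in the 10 libraries (columns, by group and replicate), each as log2 CPM minus that gene's mean over the libraries; red is above and blue below the mean. Hsp90b1, Hspa13 and Dnajc3 are blue at d9 and red at d5, Ern1 and Eif2ak3 the reverse, and Ero1l is highest at d9 with acetate.

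Among the chaperones, 8 of 10 fell at d9 against d5 with acetate (23.1% of all genes) and 4 of 10 without (21.2% of all genes). None rose, where 18.5% of all genes rose with acetate and 15.9% without. The median log2 fold change was -0.58 with acetate and -0.21 without. Hsp90b1 encodes GRP94, the Hsp90 chaperone of the ER, on which many integrins and Toll-like receptors depend. Its levels were 361.8, 311.4 and 283.6 CPM at d9 with acetate, against 1098 and 1001 CPM at d5 with acetate. Without acetate they were 337, 298 and 307 CPM at d9, against 653.5 and 637 CPM at d5. Every d9 library thus lay far below every d5 library, and the d5 libraries with acetate were the highest of all. The log2 fold change was -1.72 ± 0.13 with acetate (adjusted p = 8.91e-06) and -1.04 ± 0.12 without (adjusted p = 0.000147). Hsp90b1 lies at chromosome 10, 86690209 to 86705509, on the minus strand (GRCm38), and 15.7% of its exon bases are shared with Gm15344, Gm25745 and the opposite-strand 1810014B01Rik. That was the largest such share among the 32 genes, of which 11 share exon bases with another annotated gene, and whether reads were counted by strand is not stated in the labels.

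Hspa13, an Hsp70 relative of the microsomal lumen, had 16.4, 14.5 and 12.6 CPM at d9 with acetate, against 47.1 and 35.6 CPM at d5 with acetate. In the absence of acetate it had 14.5, 12.6 and 11.5 CPM at d9, against 26.6 and 23.4 CPM at d5, so that no d9 library reached any d5 library. The fold changes were 0.351 with acetate (log2 -1.51 ± 0.17, adjusted p = 9.26e-05) and 0.515 without (log2 -0.96 ± 0.17, adjusted p = 0.00157).

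Dnajc3 encodes p58IPK, a co-chaperone of BiP also known as an inhibitor of eIF2-alpha kinases. Its levels were 67.5, 60.9 and 49.9 CPM at d9 with acetate, against 184 and 145 CPM at d5 with acetate. The d9 libraries without acetate had 66.6, 55.7 and 65.3 CPM, against 124 and 106 CPM in the d5 libraries without acetate. Again the days did not overlap in either acetate state, with log2 fold changes of -1.47 ± 0.16 with acetate (adjusted p = 7.85e-05) and -0.88 ± 0.16 without (adjusted p = 0.0017).

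Sdf2l1, a small co-chaperone that keeps BiP substrates soluble, had 83.3, 96.7 and 89.5 CPM at d9 with acetate, against 214 and 191 CPM at d5 with acetate. Without acetate the values were 116, 102 and 127 CPM at d9 and 208 and 174.5 CPM at d5. The log2 fold changes were -1.17 ± 0.13 with acetate (adjusted p = 9.19e-05) and -0.73 ± 0.13 without (adjusted p = 0.00158), and the lowest d9 libraries were those with acetate.

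Hspa5 itself changed far less. It had 3500, 3226 and 2851 CPM at d9 with acetate, against 4446 and 4660 CPM at d5 with acetate. At d9 without acetate it had 3618, 3100 and 3176 CPM, against 3065 and 2984 CPM at d5 without acetate. The d5 libraries with acetate therefore stood above the other 8, which spanned 2851 to 3618 CPM. Hspa5 fell at d9 with acetate (log2 fold change -0.51 ± 0.13, adjusted p = 0.0099), and without acetate its log2 fold change was 0.12 ± 0.13 (adjusted p = 0.486, 95% interval -0.20 to 0.45). The call with acetate was lost when either d5 acetate library was left out (adjusted p = 0.0512 without replicate 1, 0.0749 without replicate 2).

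Of the other chaperones, Manf, a secreted ER resident that binds BiP, fell with acetate (log2 -0.64), as did Creld2 (-0.46) and Dnajb11 (-0.39), an Hsp40 partner of BiP. These 3 genes were not called without acetate. Hyou1, the nucleotide exchange factor of BiP, and Dnajb9, an Hsp40 protein that represses IRE1, were called in neither state, with log2 fold changes of -0.03 and -0.38 with acetate. The call of Dnajb11 was lost without d5 acetate replicate 1 (adjusted p = 0.0545) or replicate 2 (0.102), and that of Creld2 without d5 acetate replicate 1 (0.069).

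**Figure D2:**
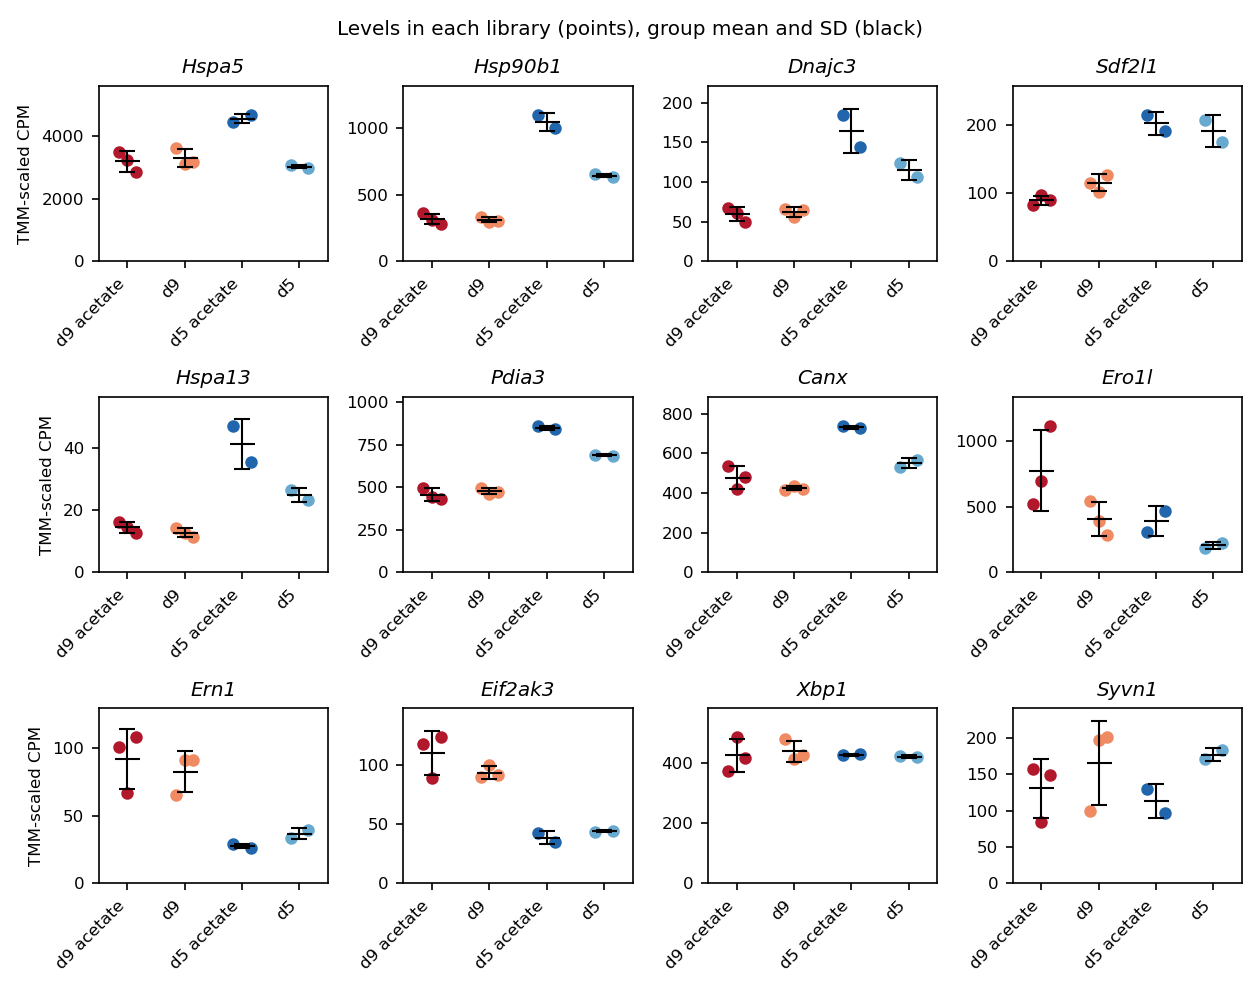
Levels in TMM-scaled CPM (vertical axes from 0) of 12 of the genes, with a point for each library and black bars for the group mean and SD; groups run from d9 with acetate to d5 without. For Hsp90b1, Hspa13 and Dnajc3 the d5 acetate libraries are highest and all d9 libraries lowest, while Ern1 and Eif2ak3 are highest at d9; Syvn1 shows the 2 low d9 libraries.

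Disulfide and lectin genes were mixed, with 5 of 9 lower and 1 higher at d9 against d5 with acetate (all genes 23.1% lower, 18.5% higher). Without acetate 2 were lower and 1 higher, near the shares of all genes (21.2% lower, 15.9% higher). Pdia3 encodes ERp57, the disulfide isomerase that works with calnexin and calreticulin and sits in the peptide-loading complex of MHC class I. It had 499, 446 and 430 CPM at d9 with acetate, against 860.2 and 843 CPM at d5 with acetate. The libraries without acetate had 498, 463 and 472 CPM at d9, against 693 and 687 CPM at d5, with no overlap between days. The log2 fold change was -0.89 ± 0.11 with acetate (adjusted p = 0.000139) and -0.53 ± 0.11 without (adjusted p = 0.00319).

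Canx, the membrane lectin calnexin, had 534, 419 and 481 CPM at d9 with acetate, against 737 and 727 CPM at d5 with acetate. At d9 without acetate it had 414, 434 and 423 CPM, against 532 and 567 CPM at d5 without acetate. The days did not overlap within either acetate state, although the highest d9 acetate library exceeded the lower d5 library without acetate. Canx fell with acetate (log2 -0.62 ± 0.12, adjusted p = 0.00226) and without (-0.38 ± 0.12, adjusted p = 0.0297). The call without acetate was lost without any 1 of the 7 libraries of the d5, d5 acetate and d9 groups (adjusted p = 0.0507 to 0.18).

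Ero1l encodes ERO1-alpha, the oxidase that recharges protein disulfide isomerases and that hypoxia also induces, and it ran against most of its role group. It had 518, 692.5 and 1109 CPM at d9 with acetate, against 310 and 469 CPM at d5 with acetate. Without acetate it had 545, 391 and 287 CPM at d9, against 189 and 225 CPM at d5. Days did not overlap within an acetate state, but the spread between replicates was wide. Ero1l rose at d9 with acetate (log2 0.99 ± 0.34, adjusted p = 0.0391) and without (0.98 ± 0.34, adjusted p = 0.0446). The call with acetate was lost without either d5 library, either d5 acetate library, d9 replicate 2 or d9 acetate replicate 3 (adjusted p = 0.0508 to 0.245). The call without acetate was lost without either d5 library, d9 replicate 1, d9 replicate 2 or d9 acetate replicate 2 (0.0513 to 0.2145).

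Its paralogue Ero1lb fell with acetate (log2 -0.57 ± 0.18, adjusted p = 0.026), as did the disulfide isomerases Pdia4 (-0.64 ± 0.10, adjusted p = 0.00073) and Pdia6 (-0.65 ± 0.14, adjusted p = 0.00475). None of the 3 was called without acetate. Leaving out d5 acetate replicate 1, d5 acetate replicate 2 or d9 acetate replicate 2 ended the call of Ero1lb (adjusted p = 0.113, 0.0999 and 0.0646), and leaving out d5 acetate replicate 2 that of Pdia6 (0.0528). P4hb, Txndc5 (a disulfide isomerase-like protein) and Calr were not called in either state, with log2 fold changes of 0.07, -0.26 and -0.22 with acetate.

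Among the sensors and regulators, 2 of 4 rose in both acetate states, where 18.5% of all genes rose with acetate and 15.9% without. The other 2 were not called. Ern1, which encodes IRE1-alpha at chromosome 11, 106394650 to 106487852 on the minus strand, had 100.7, 66.9 and 108 CPM at d9 with acetate, against 28.8 and 26.5 CPM at d5 with acetate. In the absence of acetate it had 65.5, 91.2 and 91.4 CPM at d9, against 34.0 and 39.8 CPM at d5. All 6 d9 libraries lay above all 4 d5 libraries, and the lowest at d9 were the pair that stood apart on ribosomal protein share. The changes were 3.32-fold with acetate (log2 1.73 ± 0.22, adjusted p = 0.000222) and 2.24-fold without (log2 1.17 ± 0.22, adjusted p = 0.0021).

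Eif2ak3, which encodes PERK, the kinase that lowers translation by phosphorylating eIF2-alpha, lies at chromosome 6, 70844515 to 70905245 on the plus strand. It had 118, 89.5 and 124 CPM at d9 with acetate, against 42.5 and 35.0 CPM at d5 with acetate. The libraries without acetate had 89.9, 99.9 and 91.4 CPM at d9, against 43.5 and 44.6 CPM at d5, again with every d9 library above every d5 library. The changes were 2.85-fold with acetate (log2 1.51 ± 0.16, adjusted p = 6.62e-05) and 2.13-fold without (log2 1.09 ± 0.16, adjusted p = 0.00044). The opposite-strand Gm43292 shares 8.05% of the exon bases of Eif2ak3.

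Xbp1 had 376, 486 and 416 CPM at d9 with acetate, against 426 and 430 CPM at d5 with acetate. Without acetate it had 480, 413 and 426 CPM at d9, against 425 and 419 CPM at d5. The groups overlapped and no direction was visible, with a log2 fold change of -0.01 with acetate (95% interval -0.32 to 0.31) and 0.06 without (-0.26 to 0.37). Atf6 had 192, 174 and 206 CPM at d9 with acetate, against 189.8 and 174.5 CPM at d5 with acetate. In the absence of acetate it had 160.5, 179 and 169.7 CPM at d9, against 182.5 and 181 CPM at d5. Its log2 fold changes were 0.07 with acetate (95% interval -0.20 to 0.33) and -0.10 without (-0.37 to 0.17), so total mRNA of both factors was not detectably different between days. Their activation occurs through splicing and cleavage and was not measured.

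**Figure D3:**
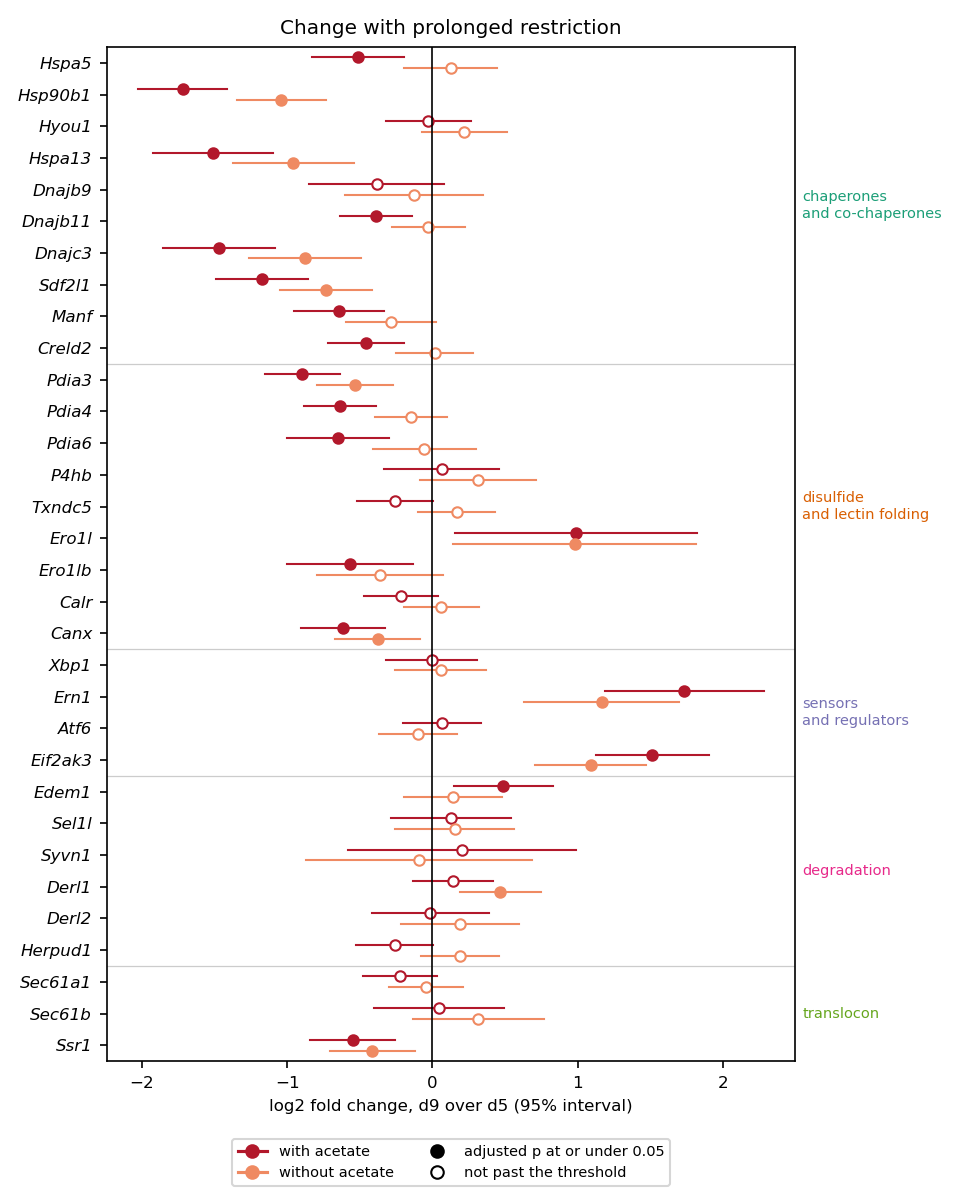
Log2 fold change of d9 over d5 for each of the 32 genes with and without acetate (horizontal axis, bars are 95% intervals, filled points have an adjusted p at or under 0.05). Chaperones lie mostly left of 0, Ern1, Eif2ak3 and Ero1l right of 0, and each of the 10 genes called in both states lies further from 0 with acetate.

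In the degradation group, 1 of 6 rose in each acetate state, near the 18.5% of all genes with acetate and 15.9% without, and none fell. Edem1, a lectin-like protein that hands misfolded glycoproteins to degradation, had 424, 318 and 411 CPM at d9 with acetate, against 279.5 and 268 CPM at d5 with acetate. At d9 without acetate it had 319.9, 378 and 367 CPM, against 319 and 324 CPM at d5 without acetate, and those groups overlapped. Edem1 rose with acetate (log2 0.49 ± 0.14, adjusted p = 0.0176), and its log2 fold change without acetate was 0.14 ± 0.14 (adjusted p = 0.446). The call was lost without d5 acetate replicate 1 (adjusted p = 0.0773), d5 acetate replicate 2 (0.104) or d9 acetate replicate 3 (0.0538).

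Derl1, a membrane protein of the export channel, had 326, 369 and 316 CPM at d9 with acetate, against 298 and 313 CPM at d5 with acetate. The libraries without acetate had 412, 367.5 and 366 CPM at d9, against 284 and 267 CPM at d5. It rose without acetate (log2 0.47 ± 0.11, adjusted p = 0.0087, and 0.0798 without d5 replicate 2), while with acetate the log2 fold change was 0.14 ± 0.11 (adjusted p = 0.339). Sel1l and Syvn1, the partners that form the Hrd1 ligase, Derl2 and Herpud1 were called in neither state, with log2 fold changes of -0.26 to 0.20 with acetate.

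Of the translocon genes, Sec61a1 and Sec61b, subunits of the channel, were not called, and Ssr1, a subunit of the translocon-associated protein complex, fell in both states. Ssr1 had 238, 187 and 206 CPM at d9 with acetate, against 299 and 316 CPM at d5 with acetate. Without acetate it had 189, 204 and 189 CPM at d9, against 247 and 270.2 CPM at d5, and no d9 library reached a d5 library. The log2 fold change was -0.55 ± 0.12 with acetate (adjusted p = 0.00437) and -0.41 ± 0.12 without (adjusted p = 0.02). The call without acetate was lost without either d5 library, d9 replicate 1 or d9 replicate 3 (adjusted p = 0.0556 to 0.158).

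With respect to the promoter motif, 7 of the 9 genes with an ERSE fell and none rose at d9 against d5 with acetate, with a median log2 fold change of -0.57, where 23.1% of all genes fell and 18.5% rose. Of the 17 genes with a promoter window and no ERSE, 5 fell and 4 rose, with a median of -0.01. The 4 that rose include Ern1 and Eif2ak3, whose windows are printed above. Without acetate the counts were 3 lower and none higher of 9 with an ERSE, and 3 lower and 3 higher of 17 without, where 21.2% of all genes fell and 15.9% rose. The difference between these sets was not tested, and Pdia3 and Sdf2l1, which fell in both states, hold no ERSE in their windows. Pdia4 and Dnajb11, which fell with acetate, hold none either, although Dnajb11 holds an ERSE-II. All ERSE genes except Syvn1 are chaperones or disulfide and lectin genes, and no sensor with a window holds an ERSE. Motif and role thus overlap, and the part of each was not tested. Only 7 genes outside the list both held an ERSE and were tested, of which Hnrnpa3 (log2 -0.90) and Derl3 (-2.72) fell and Adcy3 rose (0.84) with acetate.

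Acetate against no acetate addressed whether an alternative carbon source given for the last day alters these genes in low glucose. At d5, chaperone and oxidoreductase transcripts were higher with acetate in nearly every pair of libraries, and 1 gene passed the threshold. Hsp90b1 had 1098 and 1001 CPM with acetate, against 653.5 and 637 CPM without, and rose 1.63-fold (log2 0.70 ± 0.14, adjusted p = 0.0397), where 1.52% of all genes were called, 0.660% higher and 0.865% lower. This call depended on the settings: leaving out either d5, either d5 acetate or d9 replicate 2 or 3 raised the adjusted p to between 0.0737 and 0.264. A further alternative, fitting the d5 libraries alone, called 9 of the 32 genes, of which 8 (Hsp90b1, Hspa5, Hspa13, Dnajb9, Dnajc3, Pdia6, Ero1l and Canx) were higher and Syvn1 was lower. Leaving out both d9 libraries that stood apart called 7, of which 5 were higher. The shares of all genes called under these fits are not given here, so the larger counts do not show a stronger change in the listed genes.

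At d5 the 2 acetate libraries lay above both libraries without acetate for 22 of the 32 genes (29.8% of all genes) and below both for 5 (29.3% of all genes). Of the 10 chaperones 9 lay above and none below, and of the 9 disulfide and lectin genes 8 lay above and none below. The median log2 fold change was 0.14 for the 32 genes, where that of all genes was 0.01. It was 0.39 for the chaperones and 0.25 for the disulfide and lectin genes, whose 19 values were all above 0, as were 51.3% of all genes. An unadjusted p under 0.05 was reached by 10 of the 32, and the share of all genes under that value is not given here. Hspa5 had 4446 and 4660 CPM with acetate, against 3065 and 2984 CPM without (log2 0.59 ± 0.14, adjusted p = 0.0718). Pdia6 had 842 and 955 CPM with acetate, against 656 and 613 CPM without (log2 0.50 ± 0.16, adjusted p = 0.134). Both genes differed by more than their replicates did, and neither passed the correction over all genes.

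Ern1 and Eif2ak3 lay below 0 at d5, neither past the threshold. Ern1 had 28.8 and 26.5 CPM with acetate, against 34.0 and 39.8 CPM without (log2 -0.42 ± 0.23, adjusted p = 0.345). Eif2ak3 had 42.5 and 35.0 CPM with acetate, against 43.5 and 44.6 CPM without (log2 -0.19 ± 0.17, adjusted p = 0.558). Xbp1 and Atf6 differed by log2 0.02 ± 0.14 and 0.00 ± 0.12. Syvn1, which encodes the ubiquitin ligase HRD1, had 129 and 97.1 CPM with acetate, against 170 and 183 CPM without (log2 -0.64 ± 0.35, adjusted p = 0.332). None of these passed the threshold with all libraries, but without both d9 libraries that stood apart Ern1 (log2 -0.41, adjusted p = 0.0262) and Syvn1 (log2 -0.64, adjusted p = 0.005) were called lower. Among markers of other lineages at d5, Cd79b (2.75 and 3.84 CPM with acetate, against 0.937 and 1.17 CPM without) and Klrb1c (5.15 and 5.78 CPM with acetate, against 1.76 and 1.23 CPM without) were called higher and Cd68 lower (4.48 and 4.47 CPM with acetate, against 8.77 and 11.8 CPM without). Not all myeloid markers moved as Cd68 did. Lyz2 (16 counts) and Adgre1 (9 counts) were found at d5 only in acetate replicate 1, where Csf1r was also highest (8 counts). Ribosomal protein genes took 11.9 and 14.1% of counts in the d5 acetate libraries and 11.99 and 10.8% in the d5 libraries. The part of these differences in the result was not tested.

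At d9 no listed gene was called with acetate, where 4 of all genes (0.0303%) were. An unadjusted p under 0.05 was reached by 5 of the 32, Sdf2l1, Creld2, Pdia4, Herpud1 and Ero1l, and the DESeq2 Wald test called 1, Herpud1 (log2 -0.30, adjusted p = 0.0478). The shares of all genes under that unadjusted p or called by that test are not given here. The median log2 fold change was -0.10, where that of all genes was 0.01. All d9 acetate libraries lay above all d9 libraries without acetate for 1 gene, Dnajb9 (9.91% of all genes), and below for 7 (8.78% of all genes). Creld2, a disulfide isomerase-like protein secreted under ER stress, had 145, 161 and 139 CPM with acetate, against 192, 179.8 and 196 CPM without (log2 -0.35 ± 0.10, adjusted p = 0.166). Ero1l had the largest difference, 518, 692.5 and 1109 CPM with acetate against 545, 391 and 287 CPM without (log2 0.92 ± 0.30, adjusted p = 0.207), and the groups overlapped. Hspa5 and Hsp90b1 differed by log2 -0.05 (95% interval -0.33 to 0.24) and 0.02 (-0.25 to 0.30) at d9.

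Averaged over both days, Hsp90b1 (log2 0.36 ± 0.09, adjusted p = 0.043) and Ero1l (0.92 ± 0.24, adjusted p = 0.0481) were higher with acetate and no listed gene was lower, while 5.89% of all genes were called, 3.35% higher and 2.54% lower. Both calls were lost without any 1 of the d5 and d5 acetate libraries and d9 replicates 2 and 3. That of Hsp90b1 was also lost without d9 acetate replicate 1, and that of Ero1l without d9 acetate replicate 2 or 3. The adjusted p then lay between 0.0578 and 0.1785.

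The difference of the acetate effects, d9 minus d5, was tested directly and no listed gene passed, as none of all genes did (0.00%). Unadjusted p-values under 0.05 were reached by 12 of the 32, and the DESeq2 Wald test called Hsp90b1 (log2 -0.69, adjusted p = 0.0407). The shares of all genes under that unadjusted p or called by that test are not given here. The value was below 0 for 26 of the 32 genes and for all 10 chaperones, with a median of -0.26 where that of all genes was -0.01. Over all genes, 48.9% of the values were above 0. For Hsp90b1 it was -0.68 ± 0.18 (adjusted p = 0.322) and for Hspa5 -0.64 ± 0.19 (adjusted p = 0.407). The larger day effects with acetate and this difference come from the same 4 groups and are not separate results.

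**Figure D4:**
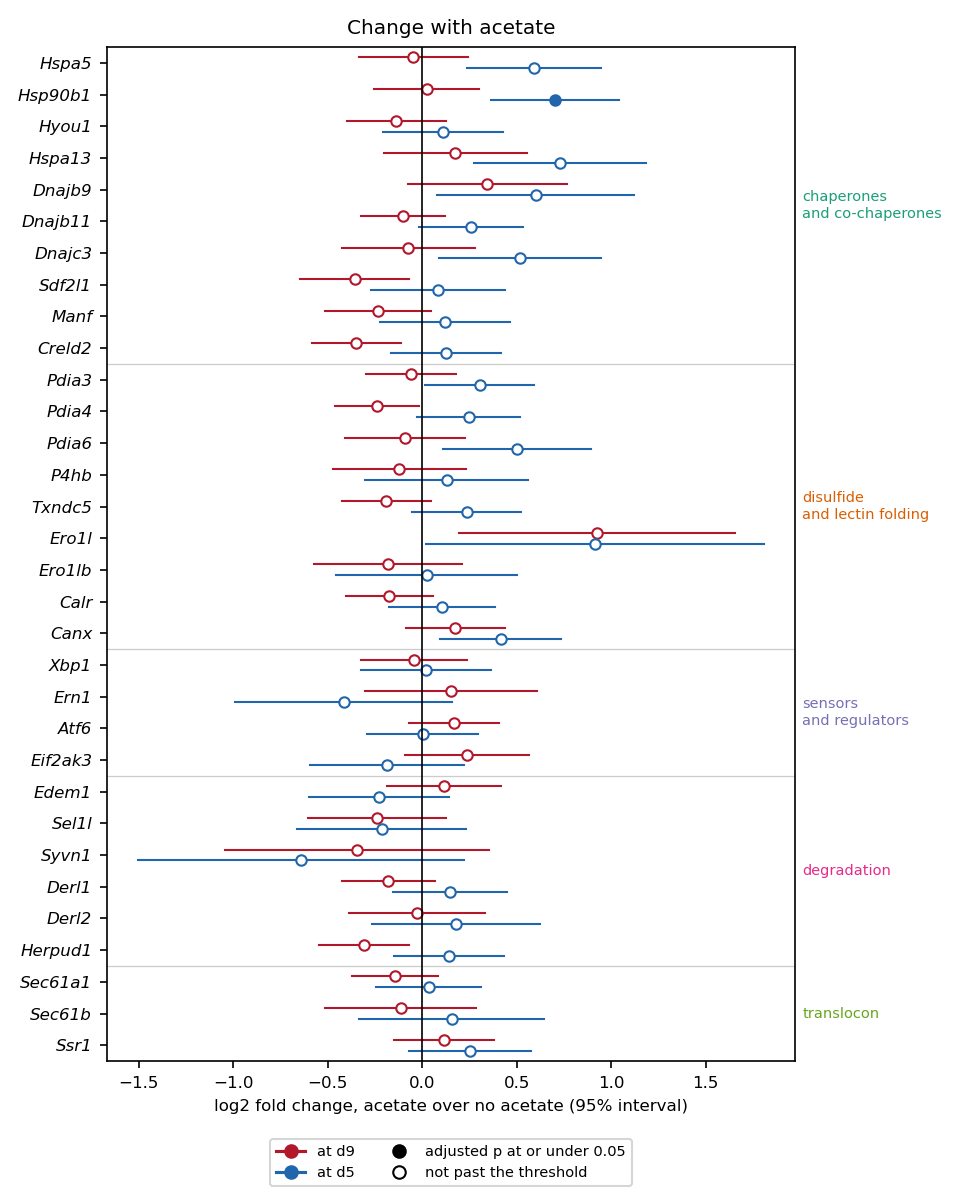
Log2 fold change of acetate over no acetate for each gene at d9 and at d5 (horizontal axis, bars are 95% intervals, filled points have an adjusted p at or under 0.05). At d5 all chaperones and all disulfide and lectin genes lie right of 0, with Hsp90b1 alone past the threshold, and at d9 most intervals include 0.

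The pair of d9 libraries with a high ribosomal protein share was also set against the other 4 in these genes. Both lay above the other 4 for 6 of the 32 genes (18.8%, against 16.8% of all genes) and below them for 9 (28.1%, against 20.5%). These counts lie near the shares of all genes and are not particular to the listed genes. Syvn1 had 84.1 CPM (d9 acetate replicate 2) and 98.8 CPM (d9 replicate 1), against 149.5 to 200.8 CPM in the others, and was singled out after its values were seen. Its SD at d9 was 40.3 CPM with acetate and 57.9 CPM without, beside means of 130 and 166 CPM. Among the 9 below were Ern1 and Eif2ak3, whose higher levels at d9 were called with and without these libraries. The part of the ribosomal protein share in the results was not tested.

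Beyond the 32 genes, 7 lists of related ER genes were counted. Of all genes tested, 18.5% were higher and 23.1% lower at d9 with acetate, and 15.9% were higher and 21.2% lower without, and each list's counts stand against these shares. In the PERK and ATF4 arm, a list of genes around ATF4 and eIF2-alpha, 6 of 12 genes were higher and 1 lower with acetate (all genes 18.5 and 23.1%). Without acetate 8 were higher and none lower (all genes 15.9 and 21.2%). The activity of PERK was not measured, and its part in these counts was not tested. Atf3, a stress-induced repressor, had 171.5 ± 35.5 CPM at d9 with acetate, against 75.5 ± 6.39 CPM at d5 with acetate (SD, n = 3 and 2, log2 1.18 ± 0.16, adjusted p = 0.000337). Ppp1r15a, which encodes GADD34, the phosphatase subunit that reverses PERK signalling, had 381 ± 40.5 CPM and 205 ± 4.34 CPM in the same groups (log2 0.89 ± 0.12, adjusted p = 0.000338). Without acetate it was also higher (0.84 ± 0.12, adjusted p = 0.000519), as was Nupr1, a stress-induced chromatin protein (0.72 ± 0.19, adjusted p = 0.0128).

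Other translocon and signal peptidase genes had 5 of 16 lower and none higher with acetate (all genes 23.1% lower, 18.5% higher), and 6 lower and 1 higher without (21.2% lower, 15.9% higher). Spcs3, a signal peptidase subunit, had log2 fold changes of -1.32 ± 0.13 with acetate and -0.96 ± 0.13 without. Ssr3, a partner of Ssr1, fell with acetate (-1.01 ± 0.15), and Tram1, which helps nascent chains enter the channel, fell without (-0.78 ± 0.14). Of 18 tested folding enzymes, 6 fell and 2 rose with acetate (all genes 23.1% lower, 18.5% higher), and 4 fell and 4 rose without (21.2% lower, 15.9% higher). Prdx4, an ER peroxiredoxin that passes oxidising equivalents to disulfide isomerases, fell most, to 9.94 ± 2.65 CPM at d9 with acetate, against 50.8 ± 5.04 CPM at d5 with acetate (log2 -2.36 ± 0.22, adjusted p = 3.75e-05). Without acetate Prdx4 fell by 1.62 ± 0.22 on the log2 scale. Fkbp11, a prolyl isomerase of secretory cells, fell with acetate (-1.34 ± 0.26) at a mean of only 2.11 CPM. Hspa4l fell without acetate (-0.97 ± 0.20) and was counted on this list, although it encodes a cytosolic chaperone.

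For degradation beyond the listed genes, 7 of 20 rose and 2 fell with acetate (all genes 18.5% higher, 23.1% lower), and 5 rose and 2 fell without (15.9% higher, 21.2% lower). Os9, a lectin of the Hrd1 complex, rose in both states (log2 0.53 ± 0.11 with acetate, 0.69 ± 0.11 without), and Edem3, a mannosidase, fell in both (-0.74 ± 0.19 and -0.71 ± 0.19). Other sensors and regulators had 1 higher and 3 lower of 12 with acetate, where all genes had 18.5% higher and 23.1% lower, and 2 higher and 4 lower without, where all genes had 15.9% higher and 21.2% lower. Prdm1, which encodes Blimp-1, a regulator of plasma cell secretion and of effector T cells, was higher in both states (2.33 ± 0.33 and 2.49 ± 0.34). Nfyb, a subunit of the NF-Y factor that binds CCAAT, fell with acetate (-1.08 ± 0.14), and Wfs1, an ER membrane protein, rose without acetate (0.89 ± 0.26).

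N-glycosylation genes had 2 higher and 2 lower of 14 with acetate, against 18.5% of all genes higher and 23.1% lower, and none called without, against 15.9 and 21.2%, where 2 had an unadjusted p under 0.05. The share of all genes under that unadjusted p is not given here. Alg2, a mannosyltransferase, rose (0.70 ± 0.17) and Rpn1, a subunit of the oligosaccharyltransferase, fell (-0.42 ± 0.12). Transport between ER and Golgi had 2 higher and 2 lower of 14 with acetate (all genes 18.5 and 23.1%), and 3 higher and none lower without (all genes 15.9 and 21.2%). Arfgap3 rose in both states (0.69 ± 0.16 and 0.66 ± 0.16), Mcfd2, a cargo receptor partner, rose without acetate (0.72 ± 0.14), and Bet1 fell with it (-0.85 ± 0.27).

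Few of these genes were called in the acetate comparisons. Of all genes tested, 0.0303% were called at d9, 1.52% at d5 and 5.89% averaged over both days. At d9 none of the 7 lists had a called gene, with 1 to 6 genes of each list at an unadjusted p under 0.05. The share of all genes under that unadjusted p is not given here. At d5 the single call was Ganab, the catalytic subunit of glucosidase II, which trims glucose from new glycoproteins, at 182 ± 2.61 CPM with acetate, against 257 ± 22.5 CPM without (SD, n = 2 each, log2 -0.50 ± 0.11, adjusted p = 0.04998). Averaged over days, the genes called lower were Qsox1, a sulfhydryl oxidase (-0.40 ± 0.08), Derl3, a membrane protein of ER degradation (-0.85 ± 0.19, at a mean of 2.00 CPM), Kdelr2, a retrieval receptor (-0.30 ± 0.08), Ganab (-0.30 ± 0.07) and Edem2 (-0.29 ± 0.07), and Nfyb was called higher (0.44 ± 0.10).

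**Figure D5:**
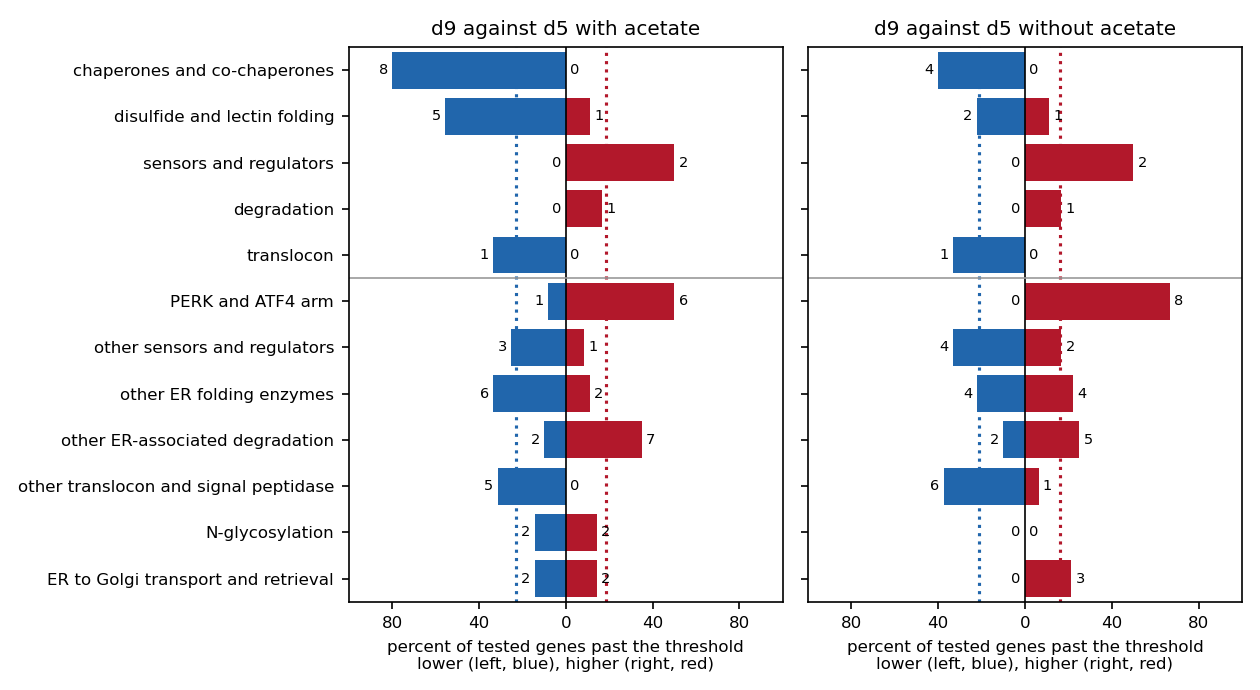
Percent of genes called higher and lower at d9 over d5 for the 5 role groups of the 32 genes and the 7 related lists, with and without acetate; dotted lines give the share over all tested genes. With acetate 8 of 10 chaperones are lower, and without acetate 8 of 12 genes of the PERK and ATF4 arm are higher.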

How the data were processed

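Polyadenylated RNA of 10 samples was sequenced from stranded mRNA libraries, per the labels' protocols. The authors deposited unnormalised counts for each gene in a file per sample. The submitters' processing notes name STAR, featureCounts, deepTools, DESeq2 and GRCm38, with versions, annotation release and strand setting not given in the sources used here. Of 53465 genes, 53360 were matched to GENCODE M21, and the rest took at most 0.00689% of a library. Depth was 16.59 to 24.66 M counts.

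Counts were fitted in R 4.3.3 with edgeR 4.0.16 (TMM scaling, filterByExpr, robust quasi-likelihood, 4 group means, 6 residual degrees of freedom). The 6 comparisons used Benjamini-Hochberg adjustment over 13182 genes at 0.05. SE is the absolute log2 fold change over the square root of F. The biological coefficient of variation was 0.161. The fit was tested on simulated data. DESeq2 1.42.0, limma 3.58.1 (voom), other scalings and filters, a replicate block, fewer samples and leaving out each library were alternatives.

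Values per library are given for genes called in any comparison, or, where more than 15 were called, for the 2 largest changes per role, and always for Hspa5, Xbp1, Ern1, Atf6 and Eif2ak3. From each related list the 2 largest called changes per comparison are named, with a mean log2 CPM of at least 1. Syvn1, Pdia6 and Creld2 were added after their values were seen. The members, lists and 2 of the settings were chosen with earlier results of these data known. Promoter windows come from RefSeq tables of GRCm38.p6 and were searched on both strands; 6 members had no entry. Protein sequences were not used here.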

Additional observations from a re-analysis of the deposited data

Results flagged for a closer look

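For 5 of the 32 genes (15.6%, against 0.804% of all genes tested), every acetate library lay below every library without acetate at d9, and above every one at d5. The converse held for 0 of the 32 genes and for 0.789% of all genes tested. By the fitted log2 fold changes alone, 23 of the 32 genes (71.9%) had opposite signs at the 2 days, against 36.7% of all genes tested. The acetate effect at d9 minus that at d5, in log2 units, was -0.49 for Pdia4 (-0.24 at d9, 0.25 at d5) and -0.47 for Creld2 (-0.35 at d9, 0.13 at d5). It was -0.45 for Herpud1 (-0.31 at d9, 0.14 at d5), -0.42 for Txndc5 (-0.19 at d9, 0.23 at d5) and -0.28 for Calr (-0.17 at d9, 0.10 at d5). The difference itself was tested with edgeR's quasi-likelihood test, and none passed, with adjusted p = 0.4198 for Pdia4, 0.4685 for Creld2, 0.508 for Herpud1, 0.527 for Txndc5 and 0.700 for Calr. No cause was tested.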

How the results depend on the processing

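Of the 32 results in which a listed gene was called, 18 stayed past the threshold under every alternative run and none changed sign. The numbers of listed genes called under other settings were as follows. They are given without the share of all genes called, which may also change with the setting. The DESeq2 Wald test called 1 for acetate at d9, 4 at d5, 6 averaged over both days and 1 for the difference of acetate effects. Library size alone called 0 for acetate at d5 and 0 averaged. No filter on low counts called 3 at d5, and limma-voom called 1 averaged. Without both d9 libraries that stood apart, 7 were called at d5 and 6 averaged, and the d5 libraries alone called 9. Leaving out each library gave 0 to 3 for acetate at d5, 0 to 4 averaged, 12 to 19 for d9 against d5 with acetate, 7 to 11 without acetate, and 0 for acetate at d9 and for the difference. Deviations from the group means had correlations of -0.39 to 0.33 between libraries of the same replicate number. Libraries of different numbers were not compared, so whether replicate numbers pair the samples cannot be told. A replicate block called 0 for acetate at d5, 1 averaged, 15 for d9 against d5 with acetate and 8 without. Genes that were not called and had a log2 fold change near 0 changed sign. For acetate at d5, Atf6 was at -0.0119 with library size alone and -0.003 with the d5 libraries alone, and between -0.0612 and 0.0597 on leaving out a library. For d9 against d5 with acetate, Atf6 was at -0.0343 with library size alone. For acetate at d9, Hspa5 was at 0.0351 without both libraries that stood apart and between -0.1179 and 0.0327 on leaving out a library, where Xbp1 lay between -0.1365 and 0.0375. Averaged over both days, Xbp1 was at 0.0022 with DESeq2 size factors and with the DESeq2 Wald test and between -0.0596 and 0.0281 on leaving out a library, and Eif2ak3 between -0.0489 and 0.0968. Between days without acetate, Xbp1 was at -0.0455 with library size alone and -0.0302 without both libraries that stood apart. With acetate it was at 0.0195 with DESeq2 size factors and with the DESeq2 Wald test, 0.0373 with no filter, 0.0116 with the replicate block and 0.0082 in the libraries compared alone, and between -0.0783 and 0.0777 on leaving out a library. For the difference of acetate effects it lay between -0.1537 and 0.0188 on leaving out a library. The cause of these shifts was not tested. The lowest count of a listed gene in a library was 265, so none rested on counts near 0.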
